A study of Mus musculus with 30 samples.

Results

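Fibroblast growth factor (FGF) signalling was followed through 8 genes: the ligands Fgf5, Fgf8, Fgf10 and Fgf18 and the receptors Fgfr1, Fgfr2, Fgfr3 and Fgfr4. They were picked by gene name, and each is represented by its brightest probe set, out of 18 probe sets annotated to them and 15139 genes tested in all. All 8 passed the filter on low signal, which asks that a probe set lie above an array's 40th percentile on at least 2 of 30 arrays. The arrays are Affymetrix whole-genome mouse arrays, which read many short probes per transcript, and values are given as log2(signal + 16). A level of 1 probe set is not set against that of another here, because probes differ in brightness.

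The cells were limb mesenchyme, the connective tissue precursor of the limb skeleton, taken from CD-1 mouse embryos at E10.5, the stage when the limb buds are small paddles, and plated as dense droplets. Embryos of this outbred stock carried no named allele, and every culture grew in medium with serum. Early cells came from the distal hindlimb, intermediate cells from the distal forelimb and late cells from the proximal forelimb. Each population was sampled at day 0, and at days 1 and 2 without added factor (control) or with BMP4, a bone morphogenetic protein, at 20 ng/ml from the start. Each of the 15 groups has 2 arrays labelled as biological replicates. RNA came from cultures of about 280 pooled embryos, and how embryos were divided between arrays is not given in the sources used here, so the spread between replicates may be partly technical. Differences are limma estimates over all 30 arrays with their standard errors, and a call is an adjusted p under 0.05 over the 15139 genes of a comparison.

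FGF ligands bind receptor tyrosine kinases together with heparan sulfate chains on the cell surface, and the active receptor works mainly through the RAS-MAP kinase cascade. In the limb bud, Fgf8 made by the apical ectodermal ridge supports the growing mesenchyme, and Fgf10 made by the mesenchyme signals to the ectoderm through Fgfr2 to keep the ridge in place. Later, Fgf18 from the perichondrium and Fgfr3 in cartilage restrain chondrocyte growth, and BMP signals favour cartilage formation from the same mesenchyme.

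Median array signal ran from 33.9 to 46.4, and replicate arrays correlated at r = 0.970 to 0.984 across genes. The mesenchyme markers Prrx1, Twist1 and Pdgfra were above the 40th percentile on all 30 arrays. Ectoderm was not absent: Epcam was above it on 29 arrays, Trp63 on 23 and Krt14 on 13, while Sp8 was above it on 6. In culture, Krt14 was above it on every replicate 1 array, and on replicate 2 only in late cells with BMP4 at day 2. Trp63 was lower on replicate 2 than on replicate 1 in every cultured group, while Epcam went either way. The day 0 labels are in doubt. Pitx1, a hindlimb factor, read 9.74 on early replicate 1 but 5.90 on early replicate 2, and 6.15 on intermediate replicate 1 but 9.43 on intermediate replicate 2. Tbx5, a forelimb factor, ran the other way, at 4.47 and 8.50 on the early arrays and 8.47 and 4.68 on the intermediate arrays. Meis2, a proximal factor, read 9.60 and 7.53 on the late arrays. Groups are kept as labelled, and most results that use day 0 are also given without the 3 replicate 2 arrays of that day. Each day 0 group then holds 1 array, assumed to vary like the others. Comparisons between populations at day 0 and in the change since day 0 are given as labelled only.

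**Figure D1:**
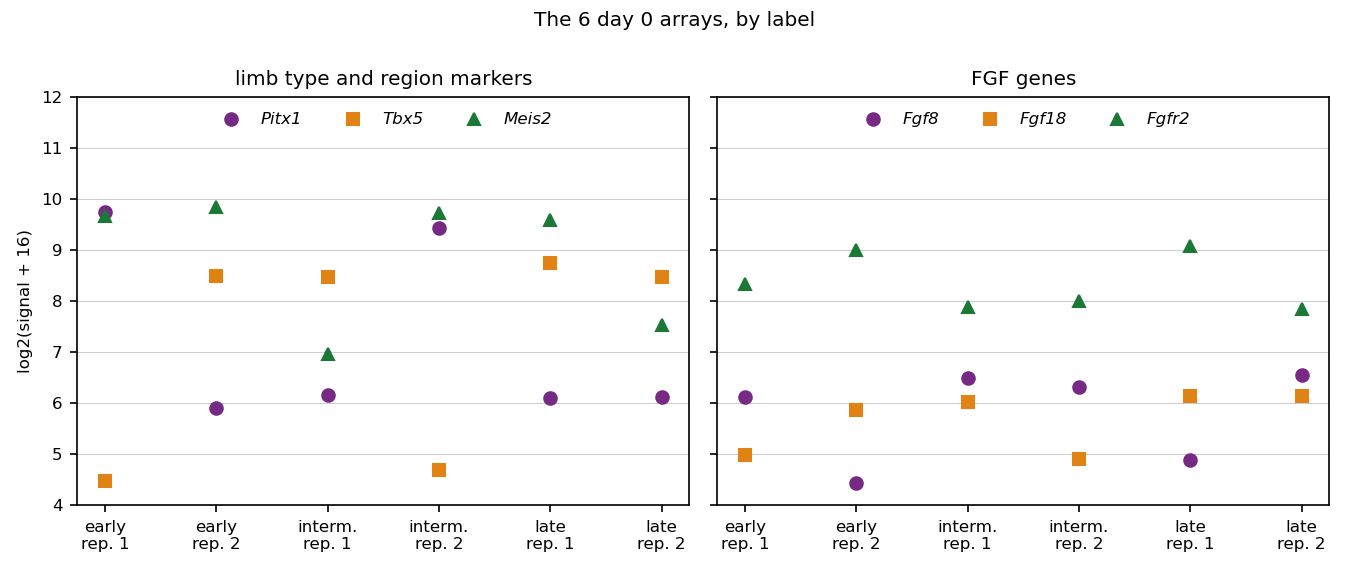
Values of 3 limb type and region markers (left) and of Fgf8, Fgf18 and Fgfr2 (right) as log2(signal + 16) on each of the 6 day 0 arrays, by label; each point is 1 array. Fgf8 was 4.43 and 4.89 on early replicate 2 and late replicate 1 and 6.11 to 6.55 on the other day 0 arrays.

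Fgf5 rose in early control cultures and was lower with BMP4 in early cells. Fgf5 is a secreted ligand known for ending the growth phase of hair and for its expression in mouse limb mesenchyme. Its RefSeq promoter window is shown because Fgf5 was the ligand called under BMP4: 300 bases, 250 before to 50 after the annotated start, on the plus strand of mouse assembly GRCm38.p6 at chr5:98253934-98254233. Capitals mark a TATAAA match, which begins at base 35 after the start, and near the far end a reverse-strand match to CCGGAA. The latter holds the core letters bound by ETS factors, a family that includes the FGF-responsive Etv4 and Etv5.
Fgf5 promoter: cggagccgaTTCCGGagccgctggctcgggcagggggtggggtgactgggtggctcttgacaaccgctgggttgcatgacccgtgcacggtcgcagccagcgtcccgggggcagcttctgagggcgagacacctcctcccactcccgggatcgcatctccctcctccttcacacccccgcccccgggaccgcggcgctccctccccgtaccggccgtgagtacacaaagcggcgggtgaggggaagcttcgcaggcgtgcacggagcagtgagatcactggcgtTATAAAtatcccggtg
On both strands, TATAAA occurred in 13.6% and CCGGAA in 14.9% of 32851 mouse windows of this length. The Fgf5 window is 68.3% G and C, where the median window has 52.7%.

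On the day 0 arrays Fgf5 read 4.56 and 4.46 in early, 4.19 and 4.42 in intermediate and 4.29 and 4.26 in late cells, none above the 40th percentile. In early cells at day 1, Fgf5 was 6.96 and 7.65 in control and 4.36 and 4.40 with BMP4, which is a signal of 108 and 185 against 4.49 and 5.07. At day 2 the early values were 6.52 and 6.56 in control and 4.42 and 4.41 with BMP4. Control and BMP4 arrays of early cells did not overlap on either day, and the BMP4 arrays lay at the bottom of the scale, as did those of day 0. Fgf5 fell with BMP4 in early cells by 2.93 ± 0.49 at day 1 (adjusted p = 0.00182) and by 2.13 ± 0.49 at day 2 (adjusted p = 0.0136). No early BMP4 or day 0 array was above the 40th percentile, so these sizes depend on the added 16. With the BMP4 values set no lower than the 40th percentile, the fall was at least 1.83 at day 1 and 1.04 at day 2. A limma fit with all values floored this way kept the day 1 call (adjusted p = 0.00567) and lost that of day 2 (adjusted p = 0.0842). Without early day 2 control replicate 1 or 2, or early day 2 BMP4 replicate 2, the day 2 call was lost, with adjusted p up to 0.128.

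In intermediate cells Fgf5 read 4.76 and 6.55 in control and 4.66 and 4.26 with BMP4 at day 1, then 4.87 and 6.25 against 4.56 and 4.41 at day 2. In late cells it read 5.81 and 6.69 in control and 4.35 and 5.42 with BMP4 at day 1, then 5.39 and 6.11 against 4.95 and 4.31 at day 2. The control replicates of the intermediate group lay far apart, but in each group both BMP4 arrays were below both control arrays. The differences were -1.19 and -1.08 in intermediate cells (adjusted p = 0.554 and 1) and -1.36 and -1.12 in late cells (adjusted p = 0.446 and 1), each ± 0.49, and none passed the test. Fgf5 was the 1 gene of the 8 whose BMP4 arrays lay below the control arrays in all 6 comparisons, a pattern shown by 67 of 15139 genes (0.443%). In intermediate cells control replicate 1 and both BMP4 arrays were under the 40th percentile on each day, so their order carries no information. The pattern thus rests partly on order at the bottom of the scale. Averaged over populations, Fgf5 fell by 1.83 ± 0.28 at day 1 (adjusted p = 0.000369) and by 1.44 ± 0.28 at day 2 (adjusted p = 0.00912), and both calls held whichever of the 30 arrays was left out. In the floored fit the day 1 average was called (adjusted p = 0.00226) and the day 2 average was not (adjusted p = 0.122). In these averages 6.29% and 1.9% of all genes were called, and 2.7% and 0.727% were called lower. The larger fall in early cells was not separable from the others: early minus intermediate at day 1 was -1.73 ± 0.69 (unadjusted p = 0.0201, adjusted p = 1) and early minus late -1.56 ± 0.69 (adjusted p = 0.83).

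Against day 0, control Fgf5 rose at day 1 in early cells by 2.79 ± 0.49 (adjusted p = 0.000428) and in late cells by 1.97 ± 0.49 (adjusted p = 0.0066), and the intermediate difference of 1.35 ± 0.49 did not pass (adjusted p = 0.0542). Without the 3 doubted arrays the early rise was 2.74 ± 0.64 (adjusted p = 0.0097) and the late difference 1.96 ± 0.64 (adjusted p = 0.0616). The late call was also lost without late day 1 control replicate 2 (adjusted p = 0.105) and in the floored fit (adjusted p = 0.0902), where the early rise was at least 1.92 (adjusted p = 0.0008). At day 2 the rise averaged over populations was 1.58 ± 0.28 (adjusted p = 7.68e-05), and 1.60 ± 0.37 without those arrays (adjusted p = 0.00208). Against floored day 0 values it was at least 0.58. In BMP4 cultures the same average differed from day 0 by 0.21 at day 1 (95% interval -0.38 to 0.79) and by 0.14 at day 2 (-0.44 to 0.73). Of the 14 steps between neighbours in the order of its 15 group means, 2 exceeded the pooled SD of replicates, 0.54. A dimmer second Fgf5 probe set, above the 40th percentile on 3 arrays, had the same sign in 5 of the 6 calls and passed in none of them. Its early day 1 difference under BMP4 was -0.98 ± 0.41 (adjusted p = 0.254).

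**Figure D2:**
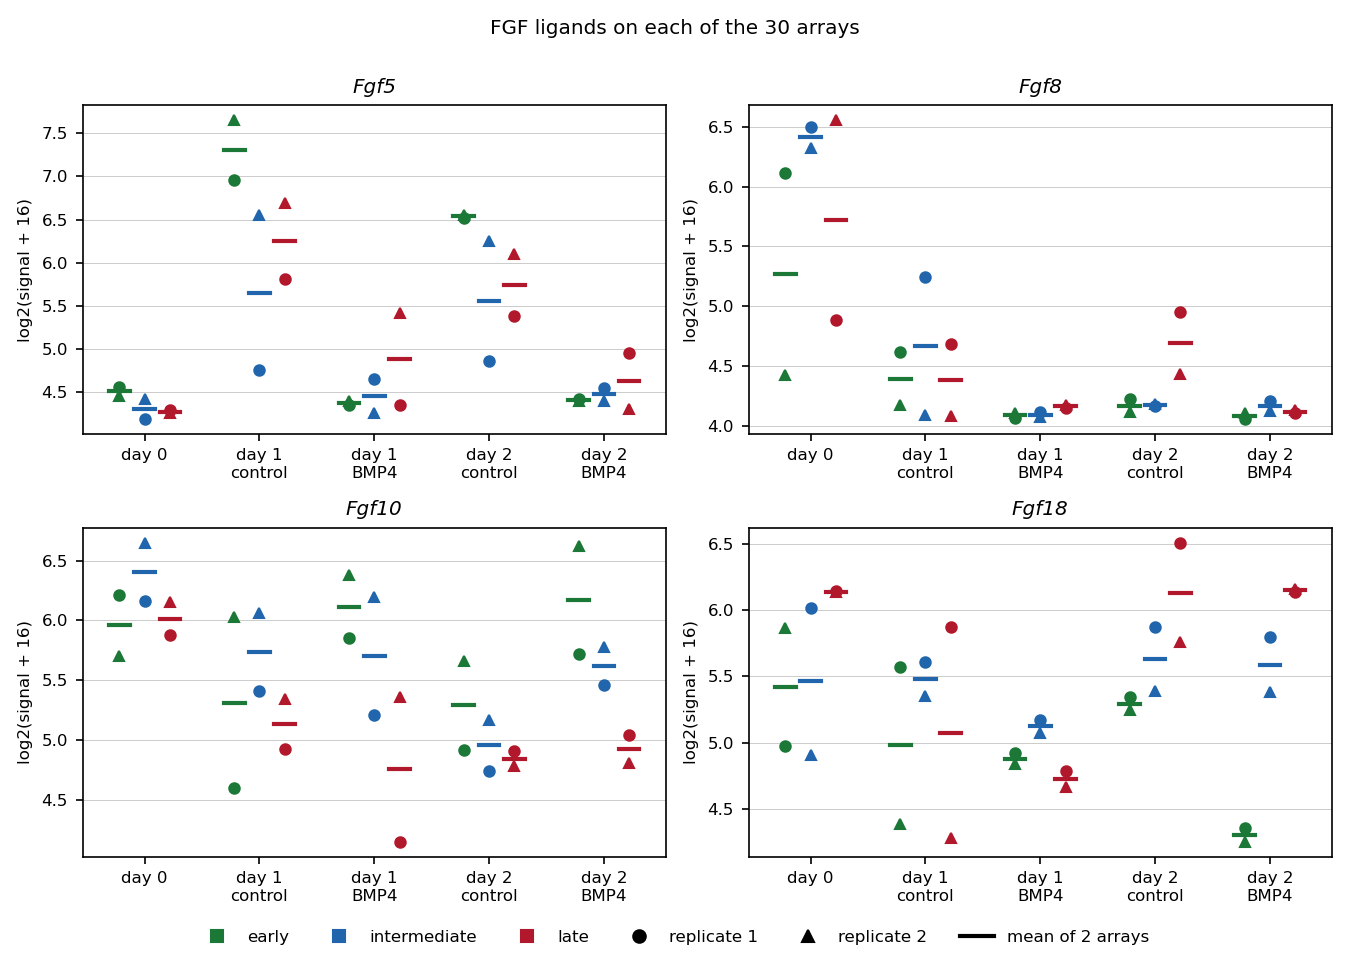
Log2(signal + 16) of the 4 ligands on all 30 arrays, by day and treatment; colour gives the population, circles replicate 1, triangles replicate 2 and bars the mean of 2 arrays. Fgf5 ran from 4.76 to 7.65 in control cultures and from 4.26 to 5.42 with BMP4, with 3 control arrays inside the BMP4 range (4.76, 4.87 and 5.39), and Fgf8 was above 6 on 4 of the 6 day 0 arrays.

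Fgf8, the ridge ligand, was a day 0 gene. It read 6.11 and 4.43 on the early, 6.50 and 6.33 on the intermediate and 4.89 and 6.55 on the late day 0 arrays. On the 24 cultured arrays it ran from 4.06 to 5.24. It was above the 40th percentile on 5 arrays, of which 4 were day 0 arrays and the other was intermediate day 1 control replicate 1, so most culture values are at the bottom of the scale and their order carries no information. The 2 day 0 arrays with Fgf8 under 5, early replicate 2 and late replicate 1, were those on which Tbx5 and Meis2 were both over 8. Their summed ectoderm marker signals were 1412 and 1533, against 1329 to 1515 on the other 4 day 0 arrays.

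Averaged over populations, Fgf8 fell between day 0 and day 1 control by 1.32 ± 0.27 (adjusted p = 0.000535) and by day 2 by 1.46 ± 0.27 (adjusted p = 0.000134). The cultured arrays are mostly under the 40th percentile, so these sizes depend on the added 16. With the cultured values set no lower than each array's 40th percentile, the fall was at least 0.48 and 0.49. On these averages 39.5% and 48.4% of all genes were called, and 17% and 21.5% were called lower. Within a population the fall passed in intermediate cells, at -1.75 ± 0.47 on day 1 (adjusted p = 0.0107) and -2.24 ± 0.47 on day 2 (adjusted p = 0.001). The day 1 call was lost without intermediate day 0 replicate 1 or day 1 control replicate 2, with adjusted p up to 0.169. In early cells the day 2 difference was -1.10 ± 0.47 (adjusted p = 0.0982), and in late cells -1.03 ± 0.47 (adjusted p = 0.115). Without the doubted arrays the early difference became -1.94 ± 0.38 (adjusted p = 0.00157), the intermediate one -2.33 ± 0.38 (adjusted p = 0.000346) and the late one -0.20 ± 0.38 (adjusted p = 0.794). The early and late differences thus changed with the day 0 array used. Of 15 tested ectoderm and ridge markers, 8 were lower and 1 higher at day 2 on the population average (7 and 1 without the doubted arrays), and their summed signal went from 1329 to 1533 at day 0 to 927 to 1609 in day 2 control. Their part in the fall of Fgf8 was not tested, and in these bulk samples fewer cells of a type and less RNA per cell cannot be told apart. BMP4 minus control for Fgf8 lay between -0.57 and -0.01 in the 6 comparisons, all near the floor, with adjusted p of 0.827 or more.

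Fgf10, the mesenchymal ligand of the ridge loop, was higher at day 0 than in control culture, at 6.22 and 5.70 in early, 6.16 and 6.65 in intermediate and 5.87 and 6.16 in late cells. By day 2 of control culture it read 4.92 and 5.66 in early, 4.74 and 5.17 in intermediate and 4.90 and 4.78 in late cells. Every day 2 control array lay below both day 0 arrays of its population. The difference averaged over populations was -0.73 ± 0.26 at day 1 (adjusted p = 0.0317) and -1.10 ± 0.26 at day 2 (adjusted p = 0.00156). Without the doubted arrays it was -0.69 ± 0.34 (adjusted p = 0.139) and -1.05 ± 0.34 (adjusted p = 0.0184), so the day 1 call was lost. The day 1 call was also lost without any 1 of 6 of the 12 arrays in it, namely intermediate and late replicate 2 and early replicate 1 of day 0 and replicate 1 of each day 1 control group.

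With BMP4, early Fgf10 was 5.85 and 6.38 at day 1 against 4.59 and 6.03 in control, and 5.72 and 6.62 at day 2 against 4.92 and 5.66. Late Fgf10 was 4.15 and 5.36 at day 1 against 4.92 and 5.34, and 5.04 and 4.81 at day 2 against 4.90 and 4.78. At day 1 the early arrays overlapped, but each early BMP4 array lay above the control array of the same replicate number on both days. The late arrays overlapped their controls. No BMP4 difference of Fgf10 passed in the fit without a replicate block. With the block, none passed within a population either. The early differences were 0.80 ± 0.46 (adjusted p = 0.431) and 0.88 ± 0.46 (adjusted p = 0.285), and the intermediate ones -0.03 ± 0.46 (adjusted p = 0.997) and 0.66 ± 0.46 (adjusted p = 1). Over days 1 and 2 and both treatments, Fgf10 was higher in early than in late cells by 0.81 ± 0.23 (adjusted p = 0.0305). This was the 1 call among the 24 comparisons of populations in culture, where 8.97% of all genes were called between early and late, 3.26% between early and intermediate and 7.62% between intermediate and late cells. Between early and late cells 17 of 19 tested muscle markers were also lower and 8 of 11 macrophage markers higher in early cells, and their part in the Fgf10 difference was not tested. The call was lost without any 1 of 10 of the 16 arrays in it: replicate 1 of the late day 1 groups, replicate 2 of the 4 early groups and all 4 late day 2 arrays.

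Fgf18, the perichondrial ligand, was not called in any single comparison of control culture with day 0 or of BMP4 with control. Its day 0 values were 4.98 and 5.86 in early, 6.02 and 4.91 in intermediate and 6.14 and 6.13 in late cells. The 2 low arrays, early replicate 1 and intermediate replicate 2, were those with Pitx1 over 9. At day 2 it read 5.34 and 5.25 in early control but 4.36 and 4.25 with BMP4, and 6.51 and 5.76 in late control against 6.14 and 6.16 with BMP4. Early BMP4 arrays were thus the lowest of day 2 and late arrays overlapped. The early difference was -0.99 ± 0.44 (adjusted p = 0.204) and the late one 0.02 ± 0.44 (adjusted p = 1). Early minus late over the cultured groups was -0.66 ± 0.22 (adjusted p = 0.0661). Averaged over populations, control day 2 minus day 0 was 0.01 ± 0.25, with a 95% interval of -0.52 to 0.54. BMP4 cultures at day 1 were below day 0 with an averaged difference of -0.76 ± 0.25 (adjusted p = 0.0181, where 44.9% of all genes were called), and of -0.80 ± 0.29 without the doubted arrays (adjusted p = 0.0375). This call was lost without intermediate day 0 replicate 1 or early day 0 replicate 2, with adjusted p up to 0.0804.

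Of the receptors, Fgfr2 and Fgfr3 rose together in culture, while Fgfr1, the main FGF receptor of limb bud mesenchyme, stayed within a range of 0.72 between group means. Fgfr2 marks early mesenchymal condensations and Fgfr3 proliferating chondrocytes. The RefSeq promoter windows of the pair are shown because they moved together, 1 for Fgfr2 on the minus strand at chr7:130266759-130267058 and 2 for Fgfr3 on the plus strand at chr5:33721474-33721773 and chr5:33722056-33722355, all in GRCm38.p6. Capitals mark GGCGCC, a palindrome searched as a G and C rich motif.
Fgfr2 promoter: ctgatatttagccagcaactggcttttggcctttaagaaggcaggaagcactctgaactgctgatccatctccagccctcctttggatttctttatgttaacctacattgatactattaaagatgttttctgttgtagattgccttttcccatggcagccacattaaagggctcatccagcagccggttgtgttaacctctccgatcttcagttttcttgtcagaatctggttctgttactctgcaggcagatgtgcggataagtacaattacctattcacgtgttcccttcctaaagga
Fgfr3 promoter, first start: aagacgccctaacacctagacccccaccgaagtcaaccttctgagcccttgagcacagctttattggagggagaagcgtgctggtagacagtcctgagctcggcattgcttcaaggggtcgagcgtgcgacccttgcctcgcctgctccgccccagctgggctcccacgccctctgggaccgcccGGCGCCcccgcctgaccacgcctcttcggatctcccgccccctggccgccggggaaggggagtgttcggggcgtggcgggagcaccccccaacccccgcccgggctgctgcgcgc
Fgfr3 promoter, second start: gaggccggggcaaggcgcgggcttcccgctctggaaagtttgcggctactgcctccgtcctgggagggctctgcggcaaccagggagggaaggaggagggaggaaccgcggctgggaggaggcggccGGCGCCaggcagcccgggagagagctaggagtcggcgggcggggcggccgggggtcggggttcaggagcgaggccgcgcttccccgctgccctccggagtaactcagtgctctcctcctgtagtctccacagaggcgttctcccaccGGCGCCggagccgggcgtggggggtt
GGCGCC occurred 1 time in the first and 2 times in the second Fgfr3 window and not in the Fgfr2 window, against 11.9% of all windows with a match. None of the 3 windows holds a match to TATAAA or to the full CCGGAA, the motifs marked for Fgf5. Shorter ETS core letters were not searched. None holds AACAAT either, a motif of SOX factors found in 10.7% of windows. Base content differed, at 43.7% G and C for Fgfr2 and 69.7% and 73.0% for Fgfr3. A match describes letters in a window and not a bound site.

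Fgfr2 read 8.34 and 9.0 in early, 7.88 and 8.01 in intermediate and 9.09 and 7.85 in late cells at day 0. At day 1 of control culture it read 10.18 and 9.78, 10.11 and 9.75, and 9.78 and 9.79 in the same populations. At day 2 it read 10.30 and 10.36, 10.23 and 10.20, and 9.85 and 9.79. Every cultured array exceeded every day 0 array. Fgfr2 rose from day 0 to day 1 by 1.31 ± 0.28 in early (adjusted p = 0.00297), 1.98 ± 0.28 in intermediate (adjusted p = 4.13e-05) and 1.32 ± 0.28 in late cells (adjusted p = 0.00237). By day 2 the average over populations was 1.76 ± 0.16 (adjusted p = 1.7e-08). Without the doubted arrays that average was 1.68 ± 0.14 (adjusted p = 3.84e-08), and the late difference was 0.70 ± 0.24 at day 1 (adjusted p = 0.0716) and 0.73 ± 0.24 at day 2 (adjusted p = 0.0422). The early day 1 call was lost without early day 0 replicate 1 (adjusted p = 0.072), and the late calls without late day 0 replicate 2 (adjusted p = 0.101 and 0.0615). The second Fgfr2 probe set passed in the same direction in 6 of the 6 calls, and the third, dimmer one in none.

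Fgfr3 read 7.94 and 7.95 in early, 8.20 and 7.51 in intermediate and 8.41 and 7.74 in late cells at day 0. At day 1 of control culture the values were 9.17 and 8.61, 9.85 and 8.75, and 8.85 and 9.08. At day 2 they were 9.69 and 9.75, 9.91 and 9.89, and 9.12 and 9.68. In each population all arrays of a later day lay above those of the day before. The average rise over populations was 1.09 ± 0.19 at day 1 (adjusted p = 7.8e-05) and 1.72 ± 0.19 at day 2 (adjusted p = 1.58e-07), and 0.87 ± 0.22 and 1.49 ± 0.22 without the doubted arrays (adjusted p = 0.00568 and 3.19e-05). Between days 1 and 2 the average rose by 0.62 ± 0.19 (adjusted p = 0.0425), where 8.55% of all genes were called, and this was lost without any 1 of 9 of its 12 arrays. The 3 arrays whose removal kept that call were intermediate and early day 1 control replicate 1 and late day 2 control replicate 1. The 1 other Fgfr3 probe set rose by 1.73 ± 0.27 from day 0 to day 2 on average (adjusted p = 1.37e-05).

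Fgfr4, a receptor known for its expression in muscle precursors, read 6.67 and 6.91, 6.56 and 6.83, and 6.63 and 6.18 in early, intermediate and late cells at day 0. At day 2 of control culture the values were 7.46 and 7.20, 6.78 and 7.28, and 7.28 and 7.31. The late arrays of day 2 lay above both late day 0 arrays. By this probe set, Fgfr4 rose in late cells by 0.66 ± 0.22 at day 1 (adjusted p = 0.044) and 0.89 ± 0.22 at day 2 (adjusted p = 0.00479). Without the doubted arrays these were 0.43 ± 0.27 (adjusted p = 0.359) and 0.67 ± 0.27 (adjusted p = 0.103). Late day 0 replicate 2 alone decided the day 2 call (adjusted p = 0.0962 without it), and the day 1 call was lost without any of 6 arrays, 4 of which were late day 0 replicate 2, late day 1 control replicate 1 and both late day 2 control arrays, and the other two intermediate day 1 controls. Averaged over populations the day 2 rise was 0.59 ± 0.13 (adjusted p = 0.000691), and 0.60 ± 0.16 without those arrays (adjusted p = 0.0049). The other Fgfr4 probe sets that passed the filter rose more on that average, by 0.99, 1.44 and 1.48, so the size of the change depends on the probe set. So does the population: at day 1 the second-brightest probe set rose in early (1.32 ± 0.36, adjusted p = 0.0168) and intermediate cells (1.18 ± 0.36, adjusted p = 0.0241), with 0.75 ± 0.36 in late cells (adjusted p = 0.166). At day 2 each of these 3 probe sets was called higher in each population. For the brightest probe set, the late call of day 1 was lost in 8 of 11 alternative settings. Among them were median centring, quantile normalization, the floored fit and a pseudocount of 64. Between days 1 and 2 the Fgfr4 average rose by 0.43 ± 0.13 (adjusted p = 0.0403), which was lost without any 1 of 8 arrays: late day 1 control replicate 2, early day 1 control replicate 2, early day 2 control replicate 1, intermediate day 2 control replicate 2, both intermediate day 1 controls and both late day 2 controls.

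Fgfr1 read 9.99 and 10.30, 9.96 and 10.13, and 10.30 and 10.08 at day 0 in early, intermediate and late cells. At day 2 control it was 10.54 and 10.56, 10.35 and 10.60, and 10.33 and 10.36. In each population both day 2 arrays lay above both day 0 arrays, by little in late cells. The average difference was 0.33 ± 0.11 (adjusted p = 0.0163), and 0.38 ± 0.14 without the doubted arrays (adjusted p = 0.035). It was lost without late day 0 replicate 2, early day 0 replicate 1 or intermediate day 2 control replicate 2, with adjusted p up to 0.0588. The call was also lost with median centring and with the second-brightest Fgfr1 probe set. From day 0 to day 2 control the mean of that probe set went from 9.58 to 9.38 in late cells. It went from 9.47 to 9.71 in early and from 9.40 to 9.88 in intermediate cells. For the brightest probe set, no step between neighbours in the order of the 15 Fgfr1 groups exceeded the pooled SD of 0.20, nor did any for Fgf10 (0.51) or Fgfr4 (0.23). The highest and lowest group means of Fgfr1 were both day 2 early cells, 10.55 in control and 9.83 with BMP4.

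**Figure D3:**
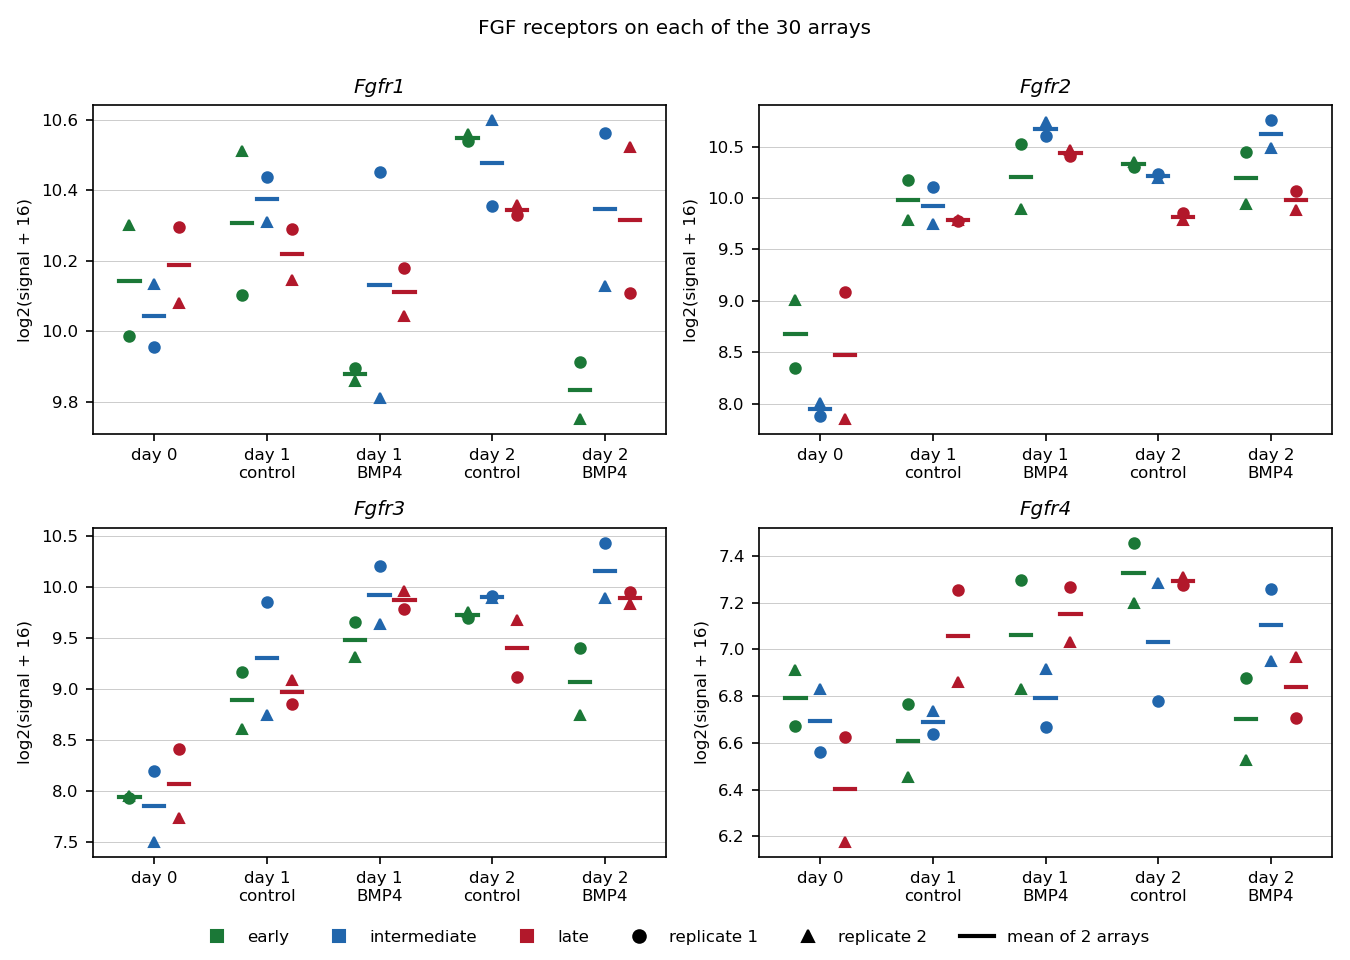
Log2(signal + 16) of the 4 receptors on all 30 arrays, drawn as for the ligands. Every cultured array of Fgfr2 (9.75 to 10.76) lies above every day 0 array (7.85 to 9.09), and Fgfr1 is lowest in early cells with BMP4 at day 2.

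Over the 8 genes, 7 higher and 1 lower calls were made in 24 tests of day 1 control against day 0, where the share called over all genes was 15.5% in early, 21% in intermediate and 18.9% in late cells. Day 2 against day 0 gave 9 higher and 2 lower calls in 24, against shares of 24.1%, 30.3% and 27.5%. Without the doubted arrays the counts were 3 higher and 2 lower at day 1, and 6 higher and 2 lower at day 2, against shares of all genes of 11.7%, 12.9% and 10.3% at day 1 and 19.6%, 21.1% and 16.8% at day 2. A large part of the transcriptome moved in culture. Among the members, the calls of Fgf8 and Fgf10 were lower and those of Fgf5, Fgfr2, Fgfr3 and Fgfr4 higher. These comparisons share their day 0 arrays. Day 2 against day 1 gave 0 limma calls in 24 tests, with 3 of the 24 at an unadjusted p under 0.05, where 1.21%, 0.832% and 0.845% of all genes were called. The change since day 0 was not called different between populations for any of the 8 genes, with an unadjusted p under 0.05 in 4 of 48 tests. Of all genes, 0% were called between early and intermediate cells on either day, 0.0264% and 0.033% between early and late and 0.0264% and 0.00661% between intermediate and late cells at days 1 and 2. The widest such difference in Fgfr2, intermediate minus late at day 2, was 0.92 ± 0.40 (unadjusted p = 0.0329, adjusted p = 0.847). Between populations at day 0, 0 of 24 tests passed in limma, as did 0% of all genes, and 2 had an unadjusted p under 0.05, for Fgf8 and Fgfr2 between early and intermediate cells. These groups, as labelled, join arrays that differ in limb type markers, with Pitx1 at 9.74 and 5.90 in early and 6.15 and 9.43 in intermediate cells. That widens the spread at day 0. The lack of calls between populations, at day 0 or in the change since, therefore does not show that they were alike.

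Markers of several other cell types moved over the same days, in both directions. On the population average from day 0 to day 2 control, 26.9% of all genes were called higher and 21.5% lower. Of 18 cartilage markers, 17 were higher at day 2 control on the population average, and their summed signal went from 1599 to 3441 at day 0 to 12829 to 21729. Of 19 tested skeletal muscle markers, 16 were higher and 1 lower, and the sum went from 359 to 843 at day 0 to 2525 to 17187. These counts were the same without the doubted arrays. Of 8 tested red blood cell markers 6 were lower and none higher, and their summed signal went from 7499 to 18029 at day 0 to 184 to 616. Of 12 endothelium markers 9 were lower, with sums of 732 to 1235 and then 422 to 582. Of 11 tested macrophage markers 3 were lower, near the share of all genes, and their sums of 598 to 850 and then 473 to 709 overlapped. The part of these cell types in the changes of the 8 genes since day 0 was not tested. Across the 15 group means, which share the rise from day 0, Fgfr2 and Fgfr3 correlated at r = 0.93, and at 0.71 over the 12 cultured groups. Fgf8 and Fgfr2 correlated at r = -0.96 over the 15 and at -0.67 over the 12, where Fgf8 is near the floor.

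**Figure D4:**
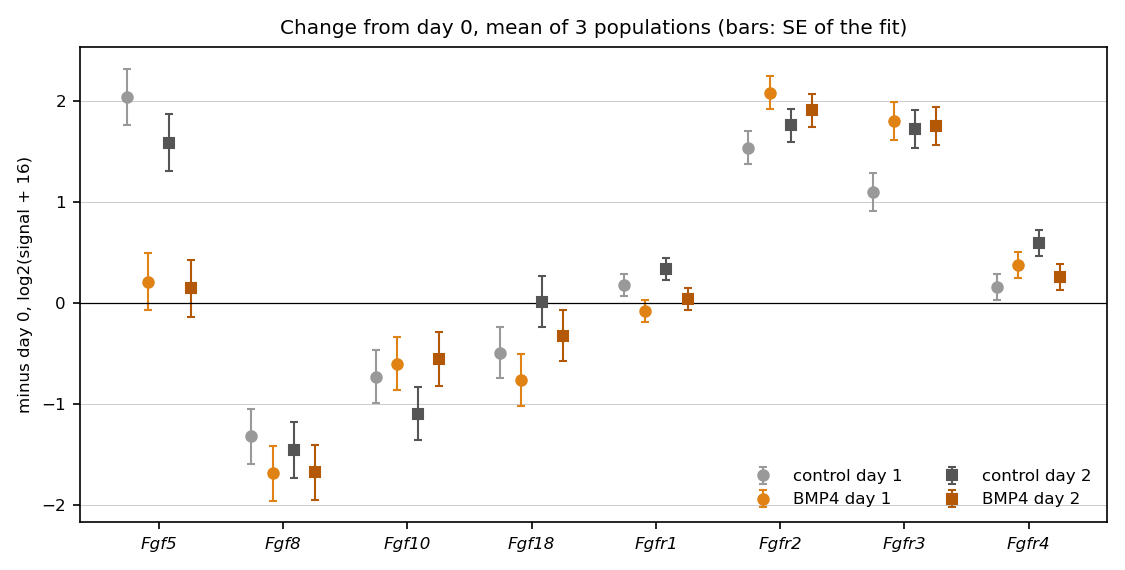
Change from day 0 control of each gene, averaged over the 3 populations, in control and BMP4 cultures at days 1 and 2; points are limma estimates on the log2(signal + 16) scale and bars their SE. Fgf5 rose by 2.04 and 1.58 in control and differed by 0.21 and 0.14 with BMP4, while Fgfr2 and Fgfr3 rose under both treatments. For Fgf5, all day 0 arrays and all but 1 of the BMP4 arrays were under the 40th percentile.

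BMP4 against control asks how the growth factor alters these genes in each population. Over 48 tests there were 3 calls, all lower and all in early cells: Fgf5 at both days and Fgfr1 at day 2. In early cells 2.45% of all genes were called at day 1 and 5.68% at day 2, and lower calls made up 0.918% and 3.28%; the 8 genes gave 1 and 2 such calls. In intermediate and late cells limma called 0 of the 8 genes on either day, with 2 and 1 in intermediate and 3 and 1 in late cells at an unadjusted p under 0.05. Of all genes, 0.238% and 0.00661% were called in intermediate and 0.0793% and 0.0132% in late cells at days 1 and 2. At an unadjusted p under 0.05 there were 2 and 4 members in early cells at days 1 and 2, out of 2274 and 3088 of all genes. Differences between populations in the BMP4 response were called for 0 of 48 in limma, with 6 at an unadjusted p under 0.05 where the share of all genes called was 0.0264% and 0.271% for early minus intermediate, 0.0264% and 0.211% for early minus late and 0% and 0.00661% for intermediate minus late cells at days 1 and 2.

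**Figure D5:**
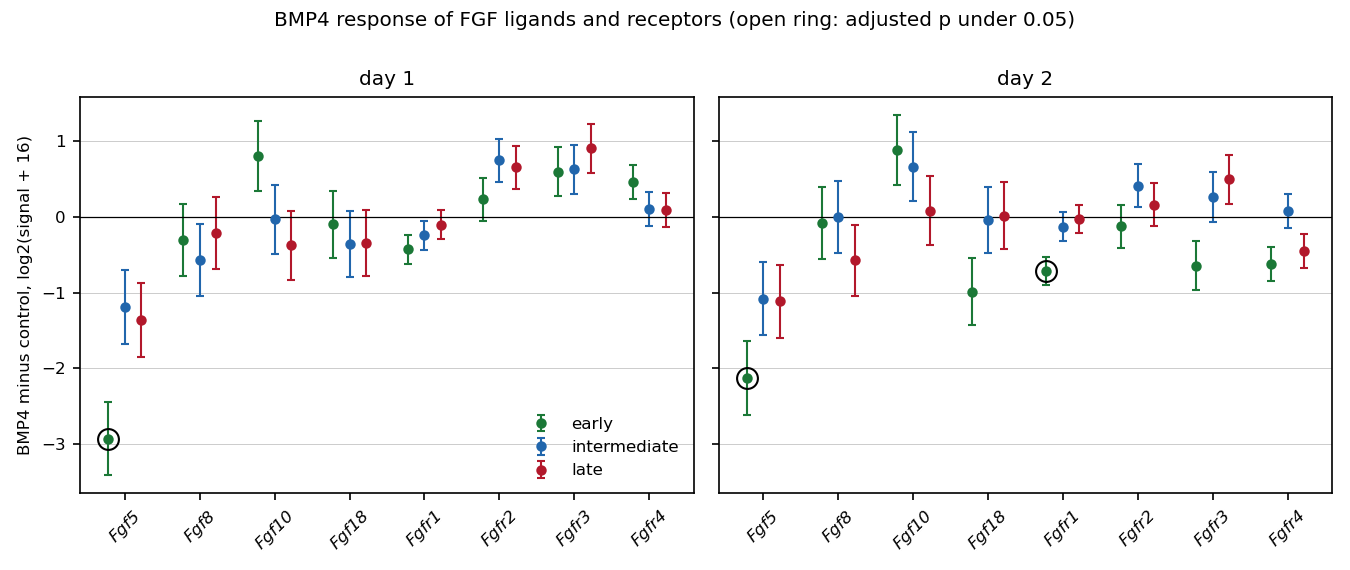
BMP4 minus control of each gene at day 1 (left) and day 2 (right) on the log2(signal + 16) scale; colour gives the population, bars are SE of the limma fit and open rings mark adjusted p under 0.05. The rings are Fgf5 in early cells on both days (-2.93 and -2.13) and Fgfr1 in early cells at day 2 (-0.72).

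Fgfr1 in early cells read 10.10 and 10.51 in control and 9.90 and 9.86 with BMP4 at day 1, then 10.54 and 10.56 against 9.91 and 9.75 at day 2. The BMP4 arrays were lower on both days. Fgfr1 fell by 0.72 ± 0.19 at day 2 (adjusted p = 0.0294), and at day 1 the difference was -0.43 ± 0.19 (adjusted p = 0.287). The day 2 call was lost without any 1 of its 4 arrays, each early day 2 control or BMP4 replicate. A second Fgfr1 probe set gave -0.83 ± 0.20 at day 1 (adjusted p = 0.0315) and -0.37 ± 0.20 at day 2 (adjusted p = 0.319), and the third passed at neither day. In early cells at day 2, 9 of 18 cartilage markers were lower and 8 of 11 macrophage markers higher with BMP4. Of all genes, 5.68% were called there. The summed cartilage signal was 4967 to 12734 with BMP4 against 21302 to 21729 in control, and the summed macrophage signal 1569 to 1661 against 559 to 642, with 11 of 12 macrophage markers above the 40th percentile against 7 to 8. At day 1, when Fgf5 fell most, 1 of 18 cartilage markers was higher and none lower, and 2 of 11 macrophage markers were higher. Of all genes, 2.45% were called at that day in early cells. The summed cartilage signal was then 4469 to 10022 with BMP4 against 9513 to 11783 in control, and the macrophage signal 1134 to 1342 against 601 to 740. The part of either cell type in the Fgf5 and Fgfr1 calls was not tested.

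By its brightest probe set, mean Fgfr3 was higher with BMP4 at day 1 in each population. It read 9.66 and 9.31 against 9.17 and 8.61 in early and 10.20 and 9.64 against 9.85 and 8.75 in intermediate cells. In late cells it read 9.78 and 9.96 against 8.85 and 9.08. The arrays overlapped in intermediate cells and not in early or late cells. Each intermediate BMP4 array lay above the control array of the same replicate number. No single difference passed, at 0.60, 0.62 and 0.90, each ± 0.32, but the average rose by 0.71 ± 0.19 (adjusted p = 0.0275), where 3.6% of all genes were called higher. That call was lost without any 1 of 6 of its 12 arrays: intermediate day 1 control replicate 2 or BMP4 replicate 1, late control replicate 1 or BMP4 replicate 2, and early control replicate 2 or BMP4 replicate 1. At day 2 the average was 0.04 ± 0.19 (95% interval -0.36 to 0.43), made of -0.65 in early, 0.26 in intermediate and 0.49 in late cells. The day 1 call was also lost with the other Fgfr3 probe set and when only the arrays compared were fitted. With BMP4 at day 1 that probe set read 8.04 and 5.98 against 7.02 and 6.69 in early cells. In intermediate cells it read 8.23 and 6.87 against 7.65 and 6.78, and in late cells 7.86 and 7.93 against 6.90 and 6.85. Fgfr2 averaged 0.54 ± 0.16 at day 1 (adjusted p = 0.0529, and 0.00673 without the doubted day 0 arrays, which changes the pooled spread), with BMP4 arrays at 10.60 and 10.74 in intermediate and 10.41 and 10.47 in late cells, above their controls. The early Fgfr2 arrays at 10.52 and 9.89 overlapped theirs. For Fgfr4 the early difference was 0.45 ± 0.22 at day 1 and -0.62 ± 0.22 at day 2, and neither passed (adjusted p = 0.349 and 0.108).

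The rest of the pathway was read from 5 lists, whose counts describe them without a test of the list. In early cells with BMP4 at day 1, 0.918% of all genes were called lower. Of 15 tested FGF targets and feedback inhibitors, 3 were lower there and none higher, with a list median of -0.31 against 0.05 for all genes. They were Etv5 (-1.36 ± 0.21), an ETS factor induced by FGF, Il17rd (-1.05 ± 0.21), which restrains receptor signalling, and Spred2 (-0.56 ± 0.12), an inhibitor of RAF activation. On the population average at day 1, 7 of 15 were lower and none higher, where 2.7% of all genes were called lower. Among the 7 were Il17rd (-0.82 ± 0.12), the feedback inhibitor Spry1 (-0.73 ± 0.12), Etv5 (-0.66 ± 0.12) and the ERK phosphatase Dusp6 (-0.85 ± 0.16). At day 2 the average called 1.9% of all genes, 0.727% of them all as lower. It gave 3 lower targets, Etv4 (-0.96 ± 0.20), Spry1 (-0.58 ± 0.12) and Spred2 (-0.29 ± 0.07). The 1 higher was the galectin gene Lgals3 (1.00 ± 0.24), which macrophages also express. In control culture from day 0 to day 2, 7 of 15 targets fell and 2 rose (8 and 2 without the doubted arrays), where 21.5% of all genes fell and 26.9% rose. The falls were led by Il17rd (-1.65 ± 0.12), Spry2 (-0.88 ± 0.09), Spred2 (-0.53 ± 0.07) and Spred1 (-0.44 ± 0.07).

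Of 17 other FGF ligands tested, none was called with BMP4 in early cells at day 1. At day 2, 1 fell, Fgf9 (-1.10 ± 0.32), where 3.28% of all genes were called lower. From day 0 to day 2 of control culture 5 of the 17 rose and none fell (6 and 0 without the doubted arrays), beside 26.9% of all genes that rose. The risers included Fgf7 (1.46 ± 0.16), a mesenchymal ligand of an epithelial Fgfr2 isoform, the intracellular Fgf11 (1.32 ± 0.19) and Fgf13 (0.47 ± 0.11), and Fgf9 (0.79 ± 0.19). Between populations in culture, 5 were lower and 1 higher in intermediate than in late cells, among them Fgf7 (-1.15 ± 0.14), Fgf11 (-1.16 ± 0.16), Fgf15 (-0.99 ± 0.16) and Fgf9 (-0.97 ± 0.16), which were lower. Early cells were lower than late cells in 4, Fgf9 (-0.82 ± 0.16), Fgf15 (-0.81 ± 0.16), Fgf11 (-0.68 ± 0.16) and Fgf13 (-0.35 ± 0.10). Of all genes, 7.62% were called between intermediate and late cells and 8.97% between early and late cells. Late cells also had the higher muscle marker signal: 17 of 19 tested muscle markers were lower in early than in late cells and 17 of 19 in intermediate than in late cells. Their part in the ligand differences was not tested.

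Other lists hold genes that shape the surface on which FGFs are presented. Of 16 tested co-receptors and binding proteins 10 rose and none fell from day 0 to day 2 control (9 and 0 without the doubted arrays), where 26.9% of all genes rose. The leading genes were Gpc4 (2.03 ± 0.12), a glypican, Flrt2 (2.07 ± 0.15), a membrane protein that binds FGF receptors, Fgfrl1 (1.41 ± 0.10), a receptor-like protein without a kinase, and Sdc4 (1.41 ± 0.11), a syndecan. Of 13 heparan sulfate enzymes 9 rose and none fell (8 and 0), led by Sulf1 (3.83 ± 0.16), which removes sulfate groups from the chains, the sulfotransferases Hs6st2 (2.01 ± 0.13) and Hs2st1 (0.65 ± 0.07), and Ext2 (1.00 ± 0.09), which extends them. With BMP4 in early cells at day 1, Sdc1 (-0.73 ± 0.14), Sdc4 (-0.71 ± 0.18) and Sulf2 (-0.72 ± 0.12) fell and the sulfotransferase Hs3st1 rose (1.36 ± 0.34). In early cells at day 2, Sdc1 (-0.64 ± 0.14), Fgfrl1 (-0.71 ± 0.18), Sulf2 (-0.62 ± 0.12) and Ext2 (-0.54 ± 0.15) fell and Gpc4 (0.82 ± 0.21) rose. Hs3st3b1 (-2.12 ± 0.20) and Hs3st3a1 (-1.78 ± 0.19) were lower in early than in intermediate cells. Of 16 tested signal transduction genes none was called with BMP4 in early cells on either day, and 6 rose and 4 fell from day 0 to day 2 (5 and 4), including Akt1 (0.69 ± 0.08) and Shc1 (0.43 ± 0.07) upward and Nras (-0.78 ± 0.10) and Sos2 (-0.61 ± 0.09) downward.

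For each gene the 3 tested genes with the most similar profile over the 15 group means were taken, as a description of these groups, which share day 0 and the same cultures. The profile of Fgf8 was most like Cbln1 (r = 0.98), U2af1 (0.95) and C2cd5 (0.95). Fgf8 was near the floor in the cultured groups, so these correlations rest mainly on its day 0 means, whose labels are in doubt. Fgfr2 was most like Stx7, Alcam and Tgfbi (each 0.97), and Fgfr3 like Gdf10, Srpr (each 0.97) and Heatr5b (0.96). Fgf5 was most like Tfdp1 (0.89), Pdxk and Mgme1 (each 0.85), Fgf10 like Hamp (0.91), Kmt2a and Plek (each 0.90), and Fgf18 like Eif2b4, Wars2 (each 0.89) and Srp9 (0.87). Fgfr1 was most like Galnt5 (0.94), Zfp521 (0.93) and Wdr35 (0.92), and Fgfr4, with the weakest likeness, like Rdm1 (0.84), Elac1 and Cdhr4 (each 0.81).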

How the data were processed

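Signal intensity values were deposited by the authors as MAS5 output, per the submitters' processing notes, on a linear scale; no version or setting is stated. Of 45101 probe sets, 64 controls and those with no gene symbol (9160) or several (932) were left out. Probe sets above the array's 40th percentile on at least 2 arrays were kept (33214), and the brightest by mean stood for its gene (15139 genes). Values were taken as log2(signal + 16) and fitted with limma 3.58.1 (R 4.3.3; lmFit, eBayes with trend) with 15 group means over 30 arrays, and p-values, two-sided, were adjusted by Benjamini-Hochberg over all genes of a comparison. Replicate numbers were not used as a block. The fit was also run on data simulated from its own group means and spread, with independent noise. That run held no shared replicate shift and no doubted labels, so it cannot show how the fit behaves with them. Pathway and marker genes were named by the smallest adjusted p, at most 4 a list and comparison. The members and lists were chosen with earlier results of these data known. Promoter windows are from RefSeq (GRCm38.p6). Arrays have no read depth, so the number of arrays limits the precision. Alternatives were another pseudocount, filter, scaling, probe set, replicate block, variance model, set of arrays fitted and each array left out. The comparisons of time changes between populations and of BMP4 cultures with day 0, and a fit with values floored at each array's 40th percentile, were added after seeing the data.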

Additional observations from a re-analysis of the deposited data

How the results depend on the processing

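Of 66 called results of the 8 genes, 64 kept their call with a pseudocount of 1 and 64 with one of 64, 63 without the filter, 62 with median centring, 62 with quantile normalization, 65 without the variance trend and 55 when only the arrays compared were fitted. With the second-brightest probe set 49 kept it, and the BMP4 calls went from 3 to 1. That probe set turned the direction of Fgf5 at day 2 minus day 0 in late cells (-0.014), of Fgfr4 at day 1 minus day 0 in early (1.32) and intermediate (1.18) cells, and of Fgfr4 with BMP4 at day 2 minus day 0 in early cells (1.55); the cause was not tested. Without the 3 replicate 2 arrays of day 0, 52 kept their call, with 5 day 1 calls in place of 8. The 1 population call in culture became 2 with a pseudocount of 64, 0 with quantile normalization, 4 with the replicate block and 2 without those 3 arrays. Leaving out each array gave 1 to 3 BMP4 calls, 7 to 11 at day 1 against day 0, 7 to 13 at day 2 against day 0 (7 without late day 0 replicate 2), 0 to 3 between populations in culture, and 0 to 0 for the BMP4 response difference, day 2 against day 1 and populations at day 0. With the replicate block the counts were 3 for BMP4, 12 for day 1 and 13 for day 2 against day 0; 66 of 66 calls were kept and 15 more were made. The labels do not state that the numbers pair samples. Same-numbered deviations correlated between -0.12 and 0.35, above 0.1 in 60 of 105 pairs of groups. In 15 of 15 groups the mean of these correlations with the other groups was above 0. In intermediate, late and early cells, day 0 red blood cell sums were 18029, 16891 and 17921 on replicate 1. On replicate 2 they were 7499, 9340 and 7799. Array differences thus went partly with replicate number, a pattern in the data and not a stated design. The main fit leaves such a shift in its spread, so a difference not called there may be called with the block. Median centring moved the median of all genes by up to -0.178 (BMP4 day 2 minus day 0, early). With values floored at each array's 40th percentile, an alternative chosen after seeing the data, 60 calls were kept; signal near that level limits the ligands.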
